A study of Homo sapiens with 8 samples.

Results

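The Hippo kinase and upstream regulator genes examined here were STK3, STK4, LATS1, LATS2, SAV1, MOB1A, MOB1B, NF2, WWC1 and TAOK1. Their open chromatin was followed in HEK293 cells, a human embryonic kidney line, carrying eGFP-YAP. Peaks were taken as members where they overlapped the body of 1 of these 10 RefSeq genes or the 20 kb on either side. This gave 110 of the 129536 deposited peaks, with no peak shared between 2 of the genes, and all 110 passed the filter on low counts. Chromatin accessibility had been measured by ATAC-seq, in which a transposase inserts adapters into open DNA. The 4 vehicle libraries came from cells without sorbitol and the 4 sorbitol libraries from cells given 200 mM sorbitol for 1 h, which makes the medium hyperosmotic. The library names place the vehicle samples at 0 h, whereas the treatment protocol says that controls were collected in parallel. If the 0 h of the names holds, sorbitol and 1 h of time cannot be told apart, and the sources do not settle which holds. Both groups carried the eGFP-YAP genotype, and the series description adds that cells were serum-starved for 1 h before treatment. Titles and source names give the line as HEK293 without the tag. Whether the tagged line is 1 clone, and whether libraries came from separate cultures, is not given in the sources used here. P-values therefore measure the spread between these libraries, which may be technical.

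In the Hippo pathway, the kinases MST1 (encoded by STK4) and MST2 (STK3) bind the scaffold SAV1 and phosphorylate LATS1, LATS2 and the MOB1 proteins. Activated LATS kinases phosphorylate the coactivators YAP and TAZ, which keeps them out of the nucleus and limits transcription through TEAD factors. NF2 (merlin) and WWC1 (KIBRA) recruit the kinases to the cell cortex, and TAOK1 can phosphorylate MST kinases. Hyperosmotic stress is known to change YAP phosphorylation.

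Library totals ranged from 11522266 to 19831471 counts in peaks, and the 110 members had a median of 44.5 counts per library, the weakest 12.88. The start-site peak of the kidney developmental gene PAX2 held 36.4 ± 2.86 CPM in vehicle cells (counts scaled to a common library total; SD, n = 4). Of other such genes LHX1 had 15.0 ± 0.566 and EYA1 only 2.17 ± 0.286, and no start-site peak was found for ALB, HBB, PTPRC or CD3E, genes of liver, red cells and leukocytes. A background index, the median log2 deviation of 477 well-covered peaks outside chromosomes 1 to 22, X and Y, was negative in vehicle 1 to 3 and positive in sorbitol 1 to 3. It went the other way in vehicle 4 (0.349) and sorbitol 4 (-0.317), and results that rest on these libraries are given with and without them. Values below are CPM of the library total multiplied by its trimmed-mean (TMM) factor. A peak is called higher or lower where the edgeR quasi-likelihood test, adjusted by Benjamini-Hochberg over all 129487 tested peaks, gave a value under 0.05.

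A start-site peak could be assigned to 9 genes, as the strongest peak over the RefSeq promoter window. The 250 bases before the start lay wholly inside that peak in each of the 9. Shown first are the sequences of the 3 genes whose start-site peaks fell most, NF2, TAOK1 and STK4, followed by LATS2 and WWC1, whose start-site peaks were not called. TAOK1 holds neither of the marked motifs. Capitals mark CCAAT and GGGCGG (GC box) on either strand, sequences are RefSeq's from GRCh38.p14, and each reads 5′ to 3′ toward the start. NF2 lies at chr22:29603306-29603555 (plus strand), TAOK1 at chr17:29390113-29390362 (plus strand), STK4 at chr20:44966262-44966511 (plus strand), LATS2 at chr13:21061587-21061836 (minus strand) and WWC1 at chr5:168291395-168291644 (plus strand).
NF2: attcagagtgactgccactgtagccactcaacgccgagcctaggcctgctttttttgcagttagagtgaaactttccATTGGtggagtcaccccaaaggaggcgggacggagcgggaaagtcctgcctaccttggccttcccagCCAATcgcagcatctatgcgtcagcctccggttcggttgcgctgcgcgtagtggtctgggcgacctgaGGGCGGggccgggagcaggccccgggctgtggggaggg
TAOK1: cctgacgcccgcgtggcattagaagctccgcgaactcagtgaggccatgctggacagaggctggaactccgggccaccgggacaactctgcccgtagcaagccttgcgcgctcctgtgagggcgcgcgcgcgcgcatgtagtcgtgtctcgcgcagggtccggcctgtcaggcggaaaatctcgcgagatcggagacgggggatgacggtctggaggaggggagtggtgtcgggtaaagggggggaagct
STK4: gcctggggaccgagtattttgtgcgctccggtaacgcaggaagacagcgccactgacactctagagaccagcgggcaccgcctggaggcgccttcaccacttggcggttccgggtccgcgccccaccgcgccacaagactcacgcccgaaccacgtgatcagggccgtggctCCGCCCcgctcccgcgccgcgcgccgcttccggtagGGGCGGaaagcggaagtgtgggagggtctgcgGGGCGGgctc
LATS2: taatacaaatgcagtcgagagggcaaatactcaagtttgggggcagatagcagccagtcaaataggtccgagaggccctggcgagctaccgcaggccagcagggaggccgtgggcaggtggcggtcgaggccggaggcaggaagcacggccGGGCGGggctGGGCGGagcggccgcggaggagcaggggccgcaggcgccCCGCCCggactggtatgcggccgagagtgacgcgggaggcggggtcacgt
WWC1: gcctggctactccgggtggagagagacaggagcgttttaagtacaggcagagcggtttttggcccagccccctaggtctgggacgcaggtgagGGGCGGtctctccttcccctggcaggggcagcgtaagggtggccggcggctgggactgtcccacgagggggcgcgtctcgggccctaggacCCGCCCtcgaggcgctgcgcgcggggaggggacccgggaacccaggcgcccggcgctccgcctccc
All 9 stretches were rich in G and C, from 62.4% (NF2 and MOB1A) to 72.8% (MOB1B), against a median of 57.6% over 27305 RefSeq promoters. GC boxes were found in 6 of the 9 (STK4, LATS1, LATS2, MOB1B, NF2 and WWC1), and in 42.2% of all promoters. CCAAT was found in NF2 and MOB1A, and in 33.0% of all promoters. TGANTCA, the AP-1 motif, was found in LATS1 and MOB1B (6.57% of all), CCGGAAG, an ETS core, in STK4 (8.78%), and the TonE motif of the tonicity factor NFAT5 in NF2 (4.26%). Neither GGAATG, a TEAD core (12.0% of all), nor GCATGCG, part of the NRF1 motif (3.57%), was found in any of the 9 on either strand. These matches are letters in a window and show no binding.

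The first question was how the 110 peaks as a whole differed after sorbitol. By the edgeR test, 8 were higher and 19 lower, and 83 were not called. The members' shares were 7.27% higher and 17.3% lower, and the background over every tested peak was 16.0% and 13.1%. The median log2 fold change was -0.14 in the members and 0.01 in all tested peaks. The split of calls depended on scaling: higher peaks made up 29.6% of the member calls, 56.0% (14 higher, 11 lower) with library totals alone and 70.4% (19 higher, 8 lower) with TMM factors from gene-boundary peaks. All tested peaks moved the same way, to 20.2% higher and 9.77% lower with library totals and to 26.3% and 6.7% with gene-boundary factors. Those factors, computed on peaks no more than 1 kb from a RefSeq gene's start or end, moved the median of all peaks from 0.01 to 0.19. Relative to that shift the member median (0.04) was lower, as it was before.

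Strong and weak member peaks differed. Of 25 peaks with a mean of at least 10 CPM, 14 were lower and 2 higher, and of 85 weaker ones 5 were lower and 6 higher. Over all tested peaks of at least 10 CPM, 37.4% were lower and 11.2% higher, and of weaker ones 7.99% and 17%. The 25 member peaks near any gene end held 11 of the lower calls and no higher one, against 32.8% lower and 8.75% higher over all peaks at gene ends. At 30 of the 110 peaks the vehicle and sorbitol values did not overlap, against 26.3% of all tested peaks.

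**Figure D1:**
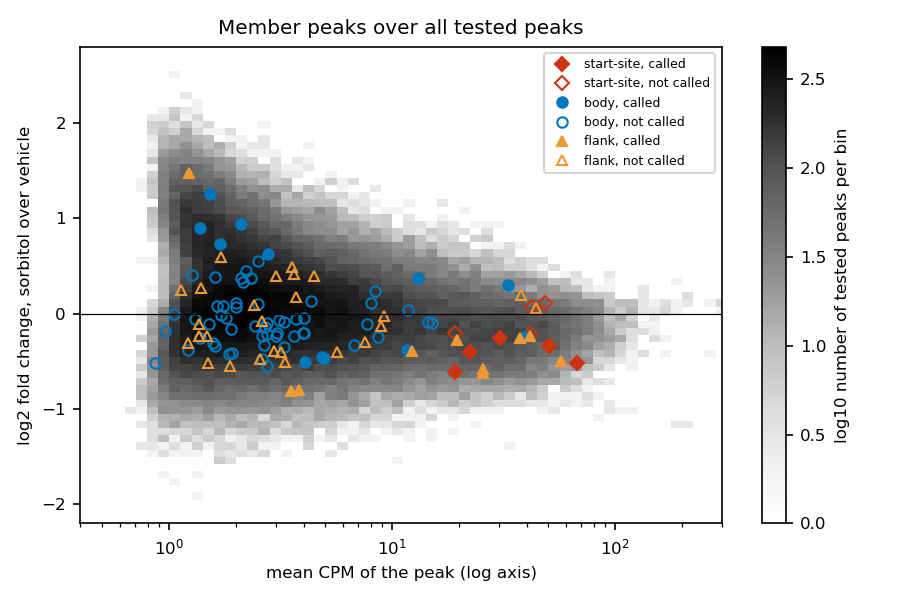
Log2 fold change (sorbitol over vehicle) of each member peak against its mean CPM on a log axis, over the density of all tested peaks in grey; diamonds are start-site peaks, circles other peaks touching a gene body and triangles flanking peaks, filled where called. Start-site peaks sit at 19.2 CPM or more and the 5 called ones lie below 0, whereas the called peaks under 3 CPM lie above 0.

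Among the 9 start-site peaks, 5 fell after sorbitol (NF2, TAOK1, STK4, LATS1 and SAV1), 4 were not called (LATS2, MOB1A, MOB1B and WWC1) and none rose. Over 10178 start-site peaks of protein-coding genes 45.1% were lower and 5.94% higher, so the 5 of 9 are near this background. The median log2 fold change was -0.25 in the 9 and -0.21 in all.

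**Figure D2:**
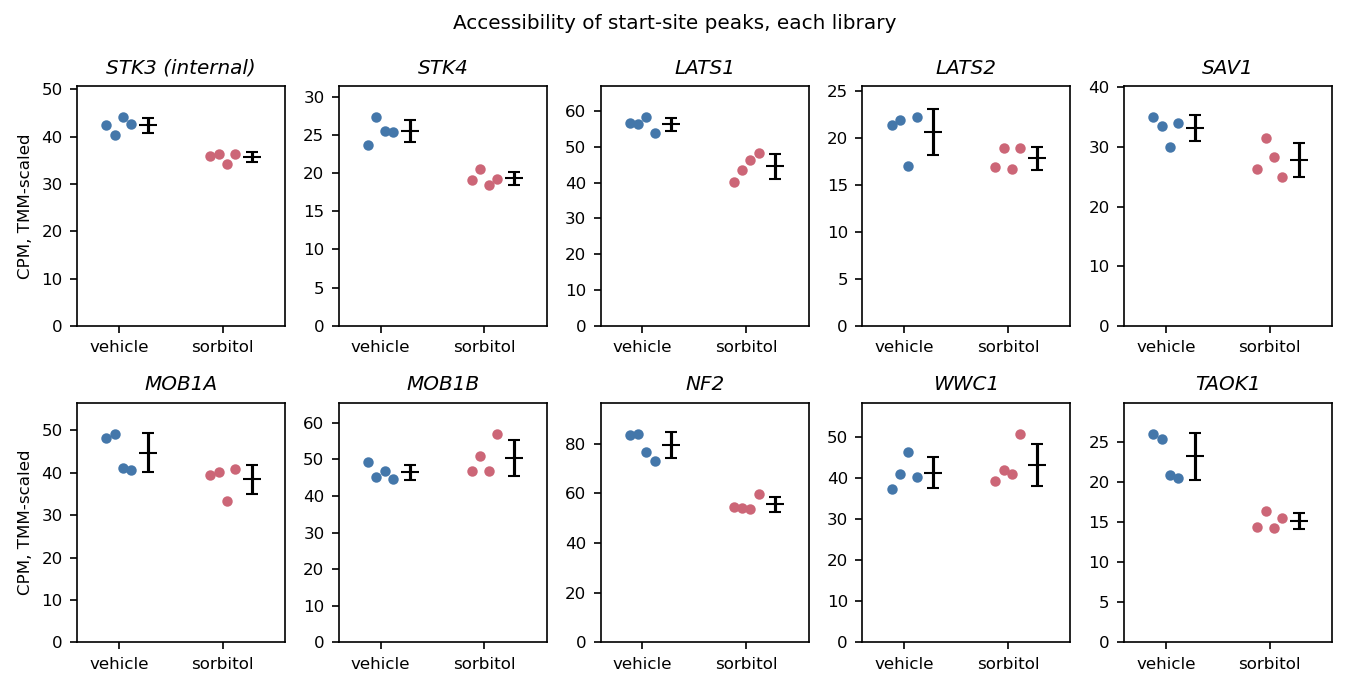
TMM-scaled CPM of the start-site peak of each gene in every library (points), with mean and SD (bars, n = 4). For STK3, which has no peak within 1 kb of either end of its RefSeq entry, the strongest peak inside the gene is drawn. NF2, TAOK1, STK4, LATS1 and the STK3 peak show no overlap between groups, and MOB1B and WWC1 overlap.

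The core kinases came first in the pathway. STK4 (MST1) had a start-site peak at chr20:44966127-44967067 that held 23.7, 27.3, 25.5 and 25.4 CPM in vehicle 1 to 4 and 19.1, 20.5, 18.4 and 19.2 in sorbitol 1 to 4. Every sorbitol library lay below every vehicle library. The log2 fold change was -0.40 with standard error 0.09 (edgeR adjusted p = 0.000702). This peak also spans the end of the divergent transcript STK4-DT. A weak peak 6.74 kb into STK4, at chr20:44973125-44973371, rose by 0.90 on the log2 scale (adjusted p = 0.0277), from 0.964 ± 0.374 to 1.78 ± 0.606 CPM (SD, n = 4) with overlapping groups. That call was lost with the loess offset (0.68, adjusted p = 0.107), with DESeq2's Wald test and without vehicle 1, vehicle 3, sorbitol 2 or sorbitol 4. In the other direction, the peak at the TOMM34 end upstream of STK4 fell by 0.28 on the log2 scale.

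STK3 (MST2) is a gene of 599 kb on chromosome 8 with 23 peaks, none within 1 kb of the ends of its RefSeq entry. An internal peak just outside that limit, at chr8:98940932-98941534, was not called (log2 fold change -0.09, edgeR adjusted p = 0.58). It held 14.9 ± 0.841 CPM in vehicle and 14.0 ± 0.538 in sorbitol (SD, n = 4). The strongest internal peak of STK3, at chr8:98825172-98826493, held 42.4, 40.4, 44.1 and 42.6 CPM in vehicle 1 to 4 and 36.0, 36.3, 34.2 and 36.4 in sorbitol 1 to 4. The groups did not overlap, and the log2 fold change was -0.25 with standard error 0.08 (adjusted p = 0.0178). With gene-boundary factors this was -0.07 (adjusted p = 0.481) and with the loess offset -0.07 (0.491), and the call was lost without vehicle 3 as well. A second internal peak at chr8:98840804-98841225 fell by 0.45 (adjusted p = 0.0351). The other lower call in the STK3 window lay at the end of OSR2, a neighbouring transcription factor gene, at -0.23. No peak of the STK3 window was called higher (16.0% of all tested peaks were), and 13.0% were lower, near the 13.1% of all.

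LATS1 encodes a kinase that phosphorylates YAP. Its start-site peak, at chr6:149717321-149718601, held 56.5, 56.4, 58.2 and 53.9 CPM in vehicle 1 to 4 and 40.2, 43.5, 46.2 and 48.2 in sorbitol 1 to 4. All sorbitol libraries were lower, and the log2 fold change was -0.34 with standard error 0.08 (adjusted p = 0.00106). The call was lost with gene-boundary factors (-0.16, adjusted p = 0.0624) and the loess offset (-0.15, 0.0962). The peak also spans an end of LOC645967. None of the other 3 peaks inside LATS1 was called. Beyond its 3′ end, inside KATNA1, a weak peak at chr6:149640421-149640627 rose by 1.47 on the log2 scale, from 0.653 ± 0.113 to 1.81 ± 0.514 CPM (SD, n = 4, adjusted p = 0.00053). A stronger peak inside KATNA1, at chr6:149647028-149647647, fell by 0.39 on the log2 scale, from 13.9 ± 1.95 to 10.7 ± 0.982 CPM (SD, n = 4, adjusted p = 0.00989). The weak KATNA1 peak was 1 of 2 member peaks called at least 2-fold higher, where 5.27% of all tested peaks were. None was called at least 2-fold lower (0.881% of all).

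LATS2, the paralog of LATS1, had no called peak among 10, where 29.1% of all tested peaks were called. Its start-site peak, at chr13:21060332-21061932, held 21.4, 21.9, 17 and 22.2 CPM in vehicle 1 to 4 and 16.9, 18.9, 16.7 and 18.9 in sorbitol 1 to 4. Vehicle 3 lay among the sorbitol values. The log2 fold change was -0.20 with standard error 0.10 (adjusted p = 0.128), and without vehicle 3 it was -0.29 (adjusted p = 0.0384). Inside the gene the 6 other peaks had a median of 0.02.

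SAV1, the scaffold of the MST kinases, had a start-site peak at chr14:50666989-50668964. It held 35.0, 33.5, 30.0 and 34.1 CPM in vehicle 1 to 4 and 26.4, 31.6, 28.3 and 24.9 in sorbitol 1 to 4, so sorbitol 2 lay above vehicle 3. The log2 fold change was -0.25 with standard error 0.09 (adjusted p = 0.0271). The call was lost in 9 of 19 alternatives, among them gene-boundary factors (-0.08, adjusted p = 0.518) and leaving out vehicle 1, vehicle 2, sorbitol 1 or sorbitol 4. The other 4 peaks of the SAV1 window were not called.

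MOB1A and MOB1B encode near-identical activators of LATS kinases. The MOB1A start-site peak, at chr2:74178126-74179432, held 48.2, 49.2, 41.1 and 40.6 CPM in vehicle 1 to 4 and 39.5, 40.1, 33.4 and 41.0 in sorbitol 1 to 4. Only vehicle 4 lay below a sorbitol library, sorbitol 4, and the log2 fold change of -0.22 (standard error 0.09) just missed the threshold (adjusted p = 0.0521). It passed in 6 of 19 alternatives, including a block on the first number of the library names (edgeR adjusted p = 0.0465), DESeq2 size factors (0.0419) and without vehicle 3, vehicle 4 or sorbitol 4. The 2 called peaks of the MOB1A window belong to neighbours: one at the ends of BOLA3 and BOLA3-DT fell by 0.58 and one at MTHFD2, a mitochondrial folate enzyme gene, fell by 0.50. At MTHFD2 the values went from 66.7 ± 2.17 to 47.3 ± 1.75 CPM (SD, n = 4, adjusted p = 2.04e-06).

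MOB1B had a start-site fold change above 0 on the log2 scale, where that of MOB1A lay below, and neither was called. Its start-site peak, at chr4:70901807-70903431, held 49.3, 45.3, 46.8 and 44.7 CPM in vehicle 1 to 4 and 46.8, 50.8, 46.9 and 57.0 in sorbitol 1 to 4. The ranges overlapped (log2 fold change 0.12, standard error 0.08, adjusted p = 0.303). It was called higher with gene-boundary factors (0.29, adjusted p = 0.00137), the loess offset (0.30, 0.000818), library totals alone (0.20, 0.04) and a mean of at least 50 counts. In the other 15 of 19 alternatives it was not called. The peak was highest in sorbitol 4. Leaving out each library gave 0.04 to 0.14, and the lowest value over all 19 alternatives was 0.02. Inside MOB1B, 3 of 7 other peaks rose and none fell. Of all tested peaks inside genes and away from gene ends, 18.9% were higher and 8.58% lower. One of the 3 higher peaks inside MOB1B lay at chr4:70984119-70984410, 81.9 kb from the start. It rose by 1.26 on the log2 scale (standard error 0.30), from 0.906 ± 0.293 to 2.16 ± 0.553 CPM (SD, n = 4, edgeR adjusted p = 0.00109).
The strongest of the 3, named after its values were seen, lay 21.36 kb from the start at chr4:70922892-70924558. It held 28.5, 28.1, 32.9 and 29.1 CPM in vehicle 1 to 4 and 34.7, 35.1, 35.7 and 41.4 in sorbitol 1 to 4. Every sorbitol library lay above every vehicle library (log2 fold change 0.31, adjusted p = 0.00573).

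NF2, the tumour suppressor merlin, had the strongest start-site peak of the 9, at chr22:29603080-29604108. It held 83.5, 84.0, 76.7 and 73.2 CPM in vehicle 1 to 4 and 54.6, 54.2, 53.6 and 59.8 in sorbitol 1 to 4. The gap between the groups was wide, and the log2 fold change was -0.51 with standard error 0.08 (adjusted p = 1.15e-06). Another 5 peaks of the NF2 window fell and none of its 18 peaks rose. Lower calls made up 33.3% of the window, against 13.1% of all tested peaks (16.0% higher). Among the 11 other peaks inside the gene 27.3% were lower, against 8.58% of all peaks inside genes (18.9% higher). Of the 5 further lower peaks, 3 lay inside the gene with fold changes of -0.38 to -0.51 on the log2 scale. The strongest of these lay at chr22:29641117-29642142 (adjusted p = 0.00934), and the weaker ones had adjusted p = 0.0259 and 0.0282. The other two lay downstream, 1 of them inside CABP7-DT, and fell by 0.80 and 0.81. These 5 calls are given under the main scaling only. With gene-boundary factors, lower calls over all 110 member peaks numbered 8 instead of 19.

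WWC1, or KIBRA, showed a start-site peak at chr5:168291222-168292634 with 37.3, 41.0, 46.4 and 40.4 CPM in vehicle 1 to 4 and 39.2, 41.9, 40.9 and 50.8 in sorbitol 1 to 4. The groups overlapped (log2 fold change 0.07, standard error 0.09, adjusted p = 0.612). Without sorbitol 4 it was -0.03 (adjusted p = 0.816), and with gene-boundary factors 0.24 (0.0148). Inside the gene 3 of 10 other peaks rose and none fell, which is near the 18.9% and 8.58% of all peaks inside genes. The one at chr5:168374599-168374978, 83.14 kb from the start, held 1.5, 1.45, 1.08 and 1.71 CPM in vehicle 1 to 4 and 3.0, 2.18, 2.68 and 3.09 in sorbitol 1 to 4. Its log2 fold change was 0.94 with standard error 0.25 (adjusted p = 0.00324), with no overlap between the groups. The only lower call lay at the end of RARS1, an aminoacyl-tRNA ligase gene, at -0.26 (adjusted p = 0.0148), and was lost with gene-boundary factors (-0.08, 0.4).

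TAOK1 had only 4 peaks. Its start-site peak, at chr17:29389931-29391699, held 26.0, 25.3, 20.9 and 20.5 CPM in vehicle 1 to 4 and 14.4, 16.4, 14.2 and 15.5 in sorbitol 1 to 4. Both groups were separate, and the log2 fold change was -0.61 with standard error 0.10 (adjusted p = 6.56e-06). This peak also covers the microRNA gene MIR4523. The flanking peak at the ends of ABHD15 and TP53I13 fell by 0.62 on the log2 scale (adjusted p = 5.06e-07). Start-site peaks of NF2, TAOK1 and STK4 kept their calls in all 19 alternatives, with ranges of -0.60 to -0.31, -0.69 to -0.43 and -0.43 to -0.23.

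**Figure D3:**
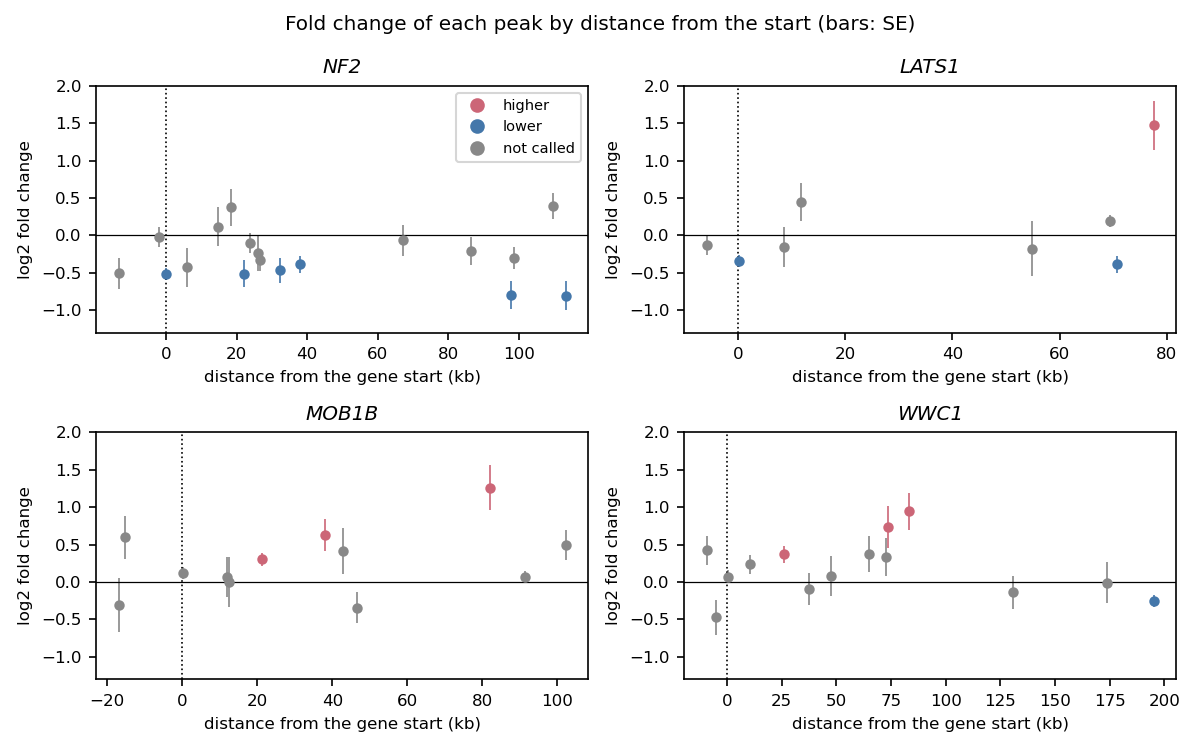
Log2 fold change of every peak in the windows of NF2, LATS1, MOB1B and WWC1 (bars, SE) by distance from the RefSeq gene start in kb, positive in the direction of transcription. Called peaks inside NF2 lie below 0, and those inside MOB1B and WWC1 lie above 0.

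Per kb of peak width, vehicle start-site accessibility was highest at NF2 (77.1 ± 5.14 CPM per kb, SD, n = 4), followed by LATS1 (43.9 ± 1.38), both apart from the rest. MOB1A (34.2 ± 3.49), the internal STK3 peak (32.0 ± 1.16), WWC1 (29.2 ± 2.66), MOB1B (28.6 ± 1.27) and STK4 (27.1 ± 1.54) formed a middle group whose neighbours in this order overlapped between libraries. SAV1 (16.8 ± 1.12), TAOK1 (13.1 ± 1.62) and LATS2 (12.9 ± 1.52) were lowest, and TAOK1 and LATS2 overlapped. After sorbitol TAOK1 had 8.56 ± 0.576 CPM per kb, below LATS2 at 11.2 ± 0.747.

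The next question was whether paralogs differed from each other in response. The log2 ratio of their start-site counts within a library does not depend on library scaling. The ratio of MOB1A to MOB1B was -0.03, 0.12, -0.19 and -0.14 in vehicle 1 to 4 and -0.25, -0.34, -0.49 and -0.48 in sorbitol 1 to 4. Every sorbitol library was lower than every vehicle library. The difference was -0.33 (permutation test, exact and two-sided, p = 0.0286). No smaller p is possible with 4 libraries a group, and after adjustment over the 3 pairs compared this permutation p was 0.0857. After adjustment MOB1A and MOB1B are therefore not shown to differ in response. For LATS1 to LATS2 the log2 ratio was 1.45 ± 0.218 in vehicle and 1.32 ± 0.116 in sorbitol (SD, n = 4, exact permutation p = 0.343). So the call at LATS1 and its absence at LATS2 are not shown to differ. For STK3, by its internal peak, to STK4 the log2 ratio was 0.73 ± 0.118 and 0.89 ± 0.0457 (SD, n = 4, exact permutation p = 0.0571, adjusted 0.0857).

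**Figure D4:**
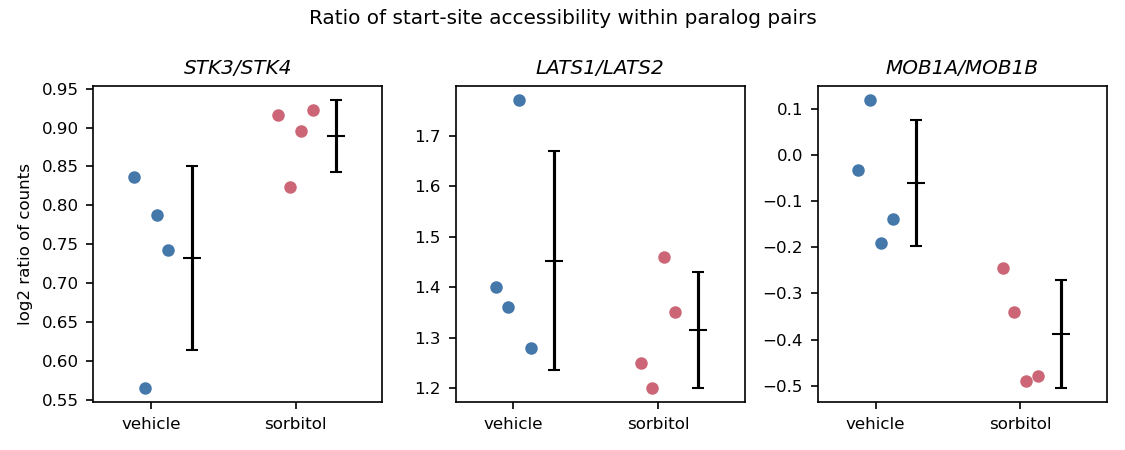
Log2 ratio of start-site counts within 3 paralog pairs in every library (points), with mean and SD (bars, n = 4); STK3 is represented by its strongest internal peak. The MOB1A to MOB1B ratio runs from -0.19 to 0.12 in vehicle and from -0.49 to -0.25 in sorbitol, with no overlap, and the LATS1 to LATS2 ratios overlap.

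Each gene was also given 1 value, the counts summed over all peaks of its window, fitted together with 18956 protein-coding gene windows. By the edgeR test 6 of the 10 windows were lower (TAOK1, MOB1A, NF2, STK4, SAV1 and STK3), 1 was higher (MOB1B) and 3 were not called (LATS1, LATS2 and WWC1). The background over all windows was 55.1% lower and 9.73% higher (median log2 fold change -0.20), and the members' shares are near it. TAOK1 fell by 0.59 on the log2 scale (standard error 0.07), from 62.2 ± 3.35 to 41.3 ± 3.39 CPM (SD, n = 4, edgeR adjusted p = 3.75e-15). NF2 went from 169 ± 7.91 to 131 ± 1.3 CPM (log2 fold change -0.37, adjusted p = 6.45e-11). MOB1A had -0.40 (adjusted p = 7.01e-12), from 151 to 114 CPM, and most of that fall lay at its neighbours. The peak at MTHFD2 went from 66.7 to 47.3 CPM and that at BOLA3 from 30.6 to 20.4, against 44.8 to 38.5 at the MOB1A start. Over the gene body alone, which holds just this start-site peak, MOB1A had -0.21 (adjusted p = 0.0109). In the fit of single peaks the same counts were not called (edgeR adjusted p = 0.0521).

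For the other windows, STK4 had -0.31 (adjusted p = 6.51e-06), SAV1 -0.20 (0.012) and STK3 -0.17 (0.00153). Those of SAV1 and STK3 lay near the median of all windows, and with gene-boundary factors they were -0.02 (adjusted p = 0.784) and 0.004 (0.935). The STK4 call was lost with the loess offset (-0.09, 0.146). MOB1B held 135, 130.0, 144 and 135 CPM in vehicle 1 to 4 and 145, 154, 139 and 172 in sorbitol 1 to 4. Sorbitol 3 lay below vehicle 3, and the log2 fold change was 0.17 with standard error 0.05 (adjusted p = 0.00377). Without sorbitol 4 the MOB1B value was 0.09 (adjusted p = 0.122), and with gene-boundary factors 0.34 (2.98e-08). WWC1 had 0.04 (adjusted p = 0.573), 0.21 (8.28e-05) with gene-boundary factors and 0.17 (0.0116) over the gene body alone, which leaves out the RARS1 end. LATS1 had -0.11 (0.059), and -0.30 (7.74e-05) over the body alone, which leaves out the peaks of KATNA1 and NUP43. The LATS1 window was called lower in 7 of 21 alternatives, among them DESeq2 size factors (-0.13, edgeR adjusted p = 0.04), without vehicle 4 (-0.13, 0.0266) and without sorbitol 4 (-0.15, 0.0134). With gene-boundary factors its value was 0.06 (0.224). LATS2 had -0.05 (0.562), and under the loess offset it was called higher (0.17, 0.0144).

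**Figure D5:**
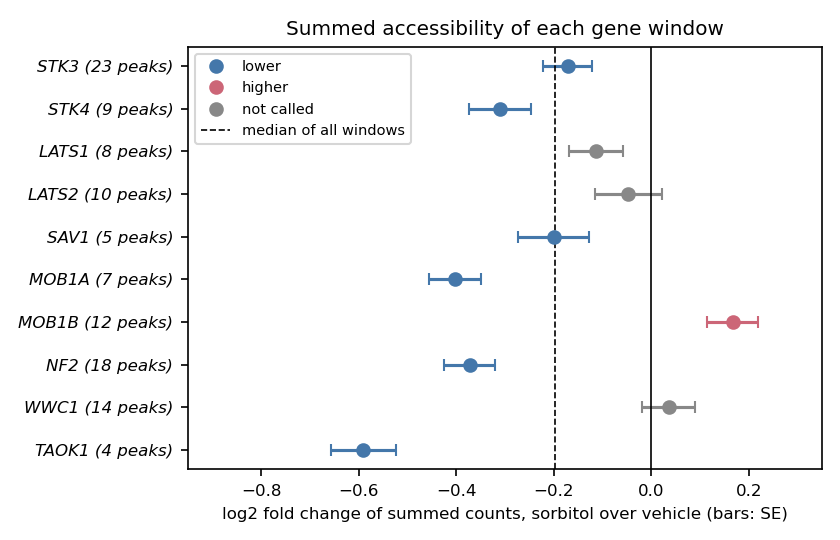
Log2 fold change of counts summed over each gene window (points, bars SE), coloured by call, with the median of all 18956 windows dashed at -0.20. TAOK1, MOB1A, NF2 and STK4 lie to the left of the dashed line, MOB1B and WWC1 to the right of 0.

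The start-site share, the percentage of a window's counts in its start-site peak, asks whether a start fell more than its surroundings, again free of scaling. At LATS1 it was 48.8, 45.9, 45.8 and 46.7% in vehicle 1 to 4 and 38.3, 39.2, 41.1 and 41.3% in sorbitol 1 to 4. The groups did not overlap, and the share differed by -6.83 percentage points (exact two-sided permutation p = 0.0286, adjusted over 9 genes 0.171). Within the gene body alone, without the KATNA1 and NUP43 peaks, it was 92.0 ± 1.69 and 89.4 ± 1.69% (SD, n = 4, exact permutation p = 0.114), with overlap. A lower share without overlap was found in 18.2% of 10836 protein-coding genes and a higher one in 10.9%. At NF2 the share went from 46.9 ± 1.12 to 42.5 ± 2.12% (SD, n = 4, exact permutation p = 0.0571), where sorbitol 4 (45.6%) lay above vehicle 4 (45.5%). Without sorbitol 4 the NF2 difference was -5.40 points with no overlap (exact permutation p = 0.0286, adjusted 0.129). Over the gene body alone the NF2 share was 58.9 ± 1.09 and 54.6 ± 2.08% with no overlap (SD, n = 4, exact permutation p = 0.0286, adjusted 0.193). MOB1A ran the other way, from 29.7 ± 2.33 to 33.8 ± 1.48% (SD, n = 4, exact permutation p = 0.0571). TAOK1 had 37.2 ± 3.43 and 36.7 ± 1.45% (SD, n = 4, exact permutation p = 0.886), with overlapping groups. Most of the other counts in the TAOK1 window came from the peak at the ABHD15 and TP53I13 ends. None of the 9 shares passed after adjustment.

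Beyond these genes, a list of 48 other Hippo pathway genes was counted the same way. Of 43 with a start-site peak 23 fell (53.5%), 3 rose (6.98%) and 17 were not called. Over all start-site peaks of protein-coding genes 45.1% were lower and 5.94% higher. In 8 of the 43 the peak was taken at either gene end for want of a promoter window. Of the 48 windows, 22 were lower, 8 higher and 18 not called, where 55.1% of all windows were lower and 9.73% higher. Their median log2 fold change was -0.10, against -0.20 over all windows. Among inhibitors of LATS kinases, start-site peaks of the LIM protein genes LIMD1 (-0.55) and AJUBA (-0.27) and of the ubiquitin ligase gene ITCH (-0.63) fell, whereas WTIP (0.01) and SIAH2 (0.10) were not called. The related kinases STK38 (-0.62), STK38L (-0.35) and NLK (-0.63) all fell. NLK, which can phosphorylate YAP under osmotic stress, went from 36.0 ± 4.18 to 23.2 ± 2.3 CPM (SD, n = 4, edgeR adjusted p = 5.82e-07).

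In the STRIPAK complex, a phosphatase assembly that acts against MST kinases, 7 of 12 start-site peaks fell and none rose, with PPP2R1A, its scaffold subunit, at -0.72 and MOB4 at -0.12 (not called). Of 7 upstream MAP4K and TAO kinases with a start-site peak 4 fell. Both counts are near the 45.1% of all start-site peaks that were lower. Of 3 RASSF genes with a start-site peak 2 fell and 1 rose, and neither of the 2 WWC and FERM scaffold genes with one was called. TAOK2, the paralog of TAOK1, fell from 39.7 ± 4.01 to 24.6 ± 2.32 CPM (SD, n = 4, log2 fold change -0.69, edgeR adjusted p = 4.98e-08). Polarity and junction genes were mixed, with 4 of 11 lower and 2 higher. SCRIB, a polarity scaffold gene, fell by 0.90, and PATJ, of the Crumbs complex, rose from 37.9 ± 1.36 to 56.1 ± 4.86 CPM (SD, n = 4, log2 fold change 0.57, edgeR adjusted p = 3.96e-07). The genes named in these last 2 paragraphs were chosen after their values were seen. In bulk samples, fewer cells with an open site and less access per cell cannot be told apart.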

How the data were processed

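Accessibility was measured in 8 ATAC-seq libraries, 4 vehicle and 4 sorbitol, each made from 50000 cells. Per the labels' protocols the sequencing was paired-end with reads of 75 bp. The authors deposited raw counts for 129536 shared peaks. The submitters' processing notes name Trim Galore 0.6.10, BWA 0.7.17, SAMtools 1.22, MACS2 2.2.9.1, deepTools 3.5.4 and DESeq2, and the build GRCh38. How peaks were merged, and whether reads or fragments were counted, is not given in the sources used here. Peak starts in the table begin at 0, so 1 was added to each. Columns were matched to libraries by the treatment and replicate number in their names. Genes came from the RefSeq table of GRCh38.p14.

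The counts were tested with R 4.3.3 and edgeR 4.0.16 (filterByExpr with minimum count 10 and minimum total 15, TMM factors, quasi-likelihood fit with treatment as the only term), over 129487 peaks and, with the same factors, 18956 gene windows. Standard errors are the log2 fold change divided by the square root of F. On simulated counts with 200 features changed 2-fold, 126 of 200 were recovered over 129487 peaks and 197 over 18956 windows, with 3 and 10 false calls. Alternatives were DESeq2 1.42.0 size factors and its Wald test, library totals, a loess offset, gene-boundary factors, other filters, blocks, other flanks and leaving out each library. A background covariate and leaving out both replicates 4, and the strongest internal peak as the stand-in for STK3, were added after seeing the data. Shares and ratios were tested by exact permutation. One marker gene of the list is not reported here. Named peaks were each start-site peak, the smallest p in each direction per gene, and all peaks called with at least a 2-fold change, and every other peak named was chosen after its values were seen. The plan took motifs over promoter windows, and here the 250 bases before the start were used. Members, lists and rules were chosen with earlier results of these data known. Counting intervals would cover counting error only, since reads carry no molecular identifiers.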

Additional observations from a re-analysis of the deposited data

Results flagged for a closer look

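Among 78 groups of 4 libraries examined, 5 held a library whose gap to its nearest neighbour, as a part of the group's range, exceeded Dixon's 95% critical value, where chance alone gives about 3.9. At the LATS2 start-site peak vehicle 3 had 17 CPM, and the rest of the vehicle group 21.4 to 22.2. At the MTHFD2 end in the MOB1A window vehicle 4 had 63.5 CPM against 67.5 to 68.2. At the NF2 start-site peak sorbitol 4 had 59.8 CPM against 53.6 to 54.6, still below the lowest vehicle value. In the summed WWC1 window sorbitol 4 had 141.0 CPM against 120.0 to 122.0. The LATS2 start-site share was 37.0% in sorbitol 3 against 41.8 to 42.6%.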

How the results depend on the processing

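Member peaks called higher numbered 8, and 14 with library totals alone, 19 with gene-boundary factors, 5 without sorbitol 4 and 5 without both replicates 4. Lower ones numbered 19, and 11, 8 and, over gene bodies alone, 10. Library totals and gene-boundary factors shift all fold changes upward: of all peaks 20.2% and 26.3% were then higher and 9.77% and 6.7% lower. Gene bodies hold fewer peaks (74). Leaving out each library gave 5 to 10 higher and 13 to 21 lower peaks. Gene windows called higher numbered 1, and 2 with library totals, gene-boundary factors, a mean of at least 50 counts, gene bodies alone or 10 kb flanks, 3 with the loess offset, and 0 without both replicates 4. Lower windows numbered 6, and 3 with the loess offset, under which 29.7% of all windows were higher and 29.9% lower. Leaving out each library gave 0 to 1 higher and 6 to 7 lower windows. The cause was not tested.

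Some windows changed sign. LATS2, not called before, became 0.0352 with library totals, 0.168 with the loess offset (edgeR adjusted p = 0.0144), 0.128 with gene-boundary factors and 0.033 with the count mean. LATS1 became 0.0886 (loess) and 0.0615 (gene-boundary), SAV1 0.0165 (loess) and STK3 0.004 (gene-boundary), both called lower before. WWC1 became -0.0346 without sorbitol 4 and -0.0498 without both replicates 4, and its start-site peak -0.0335 and -0.0453. Leaving out each library gave WWC1 -0.0346 to 0.0597 (window) and -0.0335 to 0.129 (start-site peak). Start-site shares changed sign at SAV1 (0.75) and WWC1 (-3.80) over gene bodies alone, at WWC1 (-0.0295) and TAOK1 (1.03) without vehicle 1, and at TAOK1 (0.00622) without sorbitol 1. Their leave-one-out ranges were -0.0295 to 1.53 and -1.59 to 1.03. MOB1A and TAOK1 have 1 peak in the body, so their share there has no value.

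The windows of MOB1A, NF2 and TAOK1 kept their calls in all 21 alternatives. For MOB1A the gene body alone holds just the start-site peak, which the fit of single peaks did not call (edgeR adjusted p = 0.0521). Leaving out each library gave MOB1A to MOB1B ratio differences of -0.375 to -0.268, LATS1 to LATS2 -0.196 to -0.0318 and STK3 to STK4 0.10 to 0.191. Libraries with the same replicate number did not deviate together (correlations -8.04e-05, 0.00671, -0.0309 and -0.133). With the replicate block 7 member peaks were higher and 19 lower, 1 window higher and 6 lower, and the paired MOB1A to MOB1B ratio gave p = 0.125 by exact sign flipping, which 4 pairs cannot go below. The first number of the library names was 1 for replicates 1 and 2 and 2 for replicates 3 and 4, in both groups. With that number as a block 8 member peaks were higher and 20 lower, and 1 window higher and 7 lower. Weak peaks limit the rest: the median member had a mean of 44.5 counts per library.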
